A study of Homo sapiens with 8 samples.

Results

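The 9 genes described here encode enzymes of the pentose phosphate pathway and 2 further enzymes that make NADPH outside it. They were taken by name and by protein-coding biotype from the 58735 rows of a gene table that holds 8 RNA-seq libraries, and each of the 9 names matched 1 row. The libraries come from HepaRG cells, a human liver progenitor line that can turn into hepatocyte-like and bile-duct-like cells. Cells labelled WT were grown in flasks (HepaRG flask, 3 libraries). The gene-edited HepaRG cells called M14A, labelled FoxM1/HNF4A transfected, were grown in flasks too (M14A flask, 3 libraries) or mixed with GP bioink and collected 4 h after bioprinting (M14A printed, 2 libraries). Flask cells were detached, pelleted and lysed, whereas the printed pieces were snap-frozen and crushed, so printing and the way of collection cannot be told apart. The labels do not say whether M14A is 1 clone, nor whether libraries of a group come from separate cultures, so p-values measure the spread between these libraries only.

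The pentose phosphate pathway branches off glycolysis at glucose 6-phosphate. Its oxidative arm yields NADPH, the reductant for fatty acid and sterol synthesis, for steroid and drug metabolism and for the recycling of glutathione, and the reversible non-oxidative arm links pentose phosphates with glycolytic intermediates. In hepatocytes the demand for NADPH is high, and malic enzyme and isocitrate dehydrogenase add to the supply. In the endoplasmic reticulum a separate enzyme, H6PD, makes NADPH from the same sugar phosphate.

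The stretches before the start sites of PGD, H6PD and ME1 are shown because PGD and H6PD went in opposite directions between the flask-grown lines and because ME1 carried the only window with 2 matches to the motif searched. Each is the 250 bases before a RefSeq transcript start on GRCh38.p14, written 5' to 3' on the gene's strand. All 9 genes matched the RefSeq table, with 10 windows of 250 bases before to 50 bases after a start, since IDH1 has 2. Capitals mark matches to TGACNNNGC, the core of the antioxidant response element bound by NRF2, read on both strands.
PGD (chr1:10398814-10399063, plus strand): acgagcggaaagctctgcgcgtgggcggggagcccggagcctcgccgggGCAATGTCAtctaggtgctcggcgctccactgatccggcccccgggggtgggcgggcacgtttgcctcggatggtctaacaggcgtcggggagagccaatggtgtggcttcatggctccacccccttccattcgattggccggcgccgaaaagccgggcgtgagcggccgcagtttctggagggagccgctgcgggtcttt
H6PD (chr1:9239597-9239846, plus strand): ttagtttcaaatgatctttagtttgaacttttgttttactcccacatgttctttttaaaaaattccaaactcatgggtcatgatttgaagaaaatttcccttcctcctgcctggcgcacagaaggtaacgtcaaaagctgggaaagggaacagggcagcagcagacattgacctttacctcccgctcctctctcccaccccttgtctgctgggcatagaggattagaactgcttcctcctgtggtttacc
ME1 (chr6:83431052-83431301, minus strand): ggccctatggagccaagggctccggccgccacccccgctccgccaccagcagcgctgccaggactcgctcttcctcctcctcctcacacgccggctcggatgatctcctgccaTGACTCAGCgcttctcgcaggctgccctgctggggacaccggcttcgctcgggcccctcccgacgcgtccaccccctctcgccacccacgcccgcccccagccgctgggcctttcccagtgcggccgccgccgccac

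The core motif matched in 4 of the 10 windows, against 13.3% of all 35116 RefSeq windows of that length. With the start base counted as 0, PGD held GCAATGTCA (minus strand of the gene) from -201 to -193. ME1 held TGACTCAGC from -137 to -129 and, past the start, GCACCGTCA on the other strand from 11 to 19. RPE held TGACAGCGC from -151 to -143, and the further window of IDH1 held TGACTCCGC from -143 to -135. The windows of PGLS, H6PD, RPIA, TKT and TALDO1 and the other window of IDH1 held no match. Some windows lie inside the gene as placed by the deposited positions. That of H6PD begins at 9239597 and the gene at 9234775, and that of PGD at 10398814 and the gene at 10398592. Both IDH1 windows lie at or below 208255321, whereas that minus-strand gene starts at 208266074. The stretches before these outermost gene starts were not searched. The HNF4 element CAAAGTCCA (0.384% of all windows) and the E-box CACGTG (7.26%) matched none of the 10 windows, which says only that these letters are not there.

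The libraries held 15632154 to 19148262 reads each. Levels are FPKM, which divide a gene's fragments by its length and by a library factor. HNF4A stood at 5.67, 6.24 and 6.50 FPKM in HepaRG flask, at 37.9, 43.1 and 41.7 in M14A flask and at 17.1 and 13.6 in M14A printed, and FOXM1 at 12.9 to 14.9, 8.92 to 13.0 and 10.06 to 10.1. One library, M14A flask replicate 1, stood apart, with r of 0.957 and 0.948 to the other 2 of its group against 0.988 between those, so values that turn on it are also given without it. Reads of mitochondrial genes made up 6.91 to 7.25% in HepaRG flask, 8.21 to 9.72% in M14A flask and 13.3 to 16.4% in M14A printed, and the FPKM totals, which are not equal, ran from 254141 to 514152. The hepatocyte marker ALB was at 2.01 to 2.42, 23.1 to 29.1 and 79.1 to 83.3 FPKM, so the labelled cell type shows albumin at a low level in HepaRG flask. ALB is 1 of 12 hepatic and epithelial markers listed. Of the 8 tested, 7 were called higher and 0 lower between the flask lines, and 5 higher and 0 lower from M14A flask to M14A printed. Not all moved like ALB: in the same group order APOB was at 10.3 to 12.4, 23.4 to 72.7 and 17.7 to 34.6 FPKM. KRT19 was at 41.2 to 45.4, 11.6 to 49.0 and 25.1 to 28.7, and EPCAM was at 0 in every M14A library. Summed over leukocyte markers the level was 2.38 to 2.89, 6.60 to 10.6 and 10.01 to 11.9 FPKM, carried by LAPTM5 (0.714 to 0.846, 3.79 to 5.49 and 5.18 to 6.74) and CD14 (1.48 to 1.98, 2.67 to 5.01 and 4.67 to 4.87), both called higher in M14A flask than in HepaRG flask, with PTPRC at 0 in 6 of 8 libraries and at no more than 0.0208. Summed endothelial markers were at 1.01 to 1.27, 1.65 to 2.36 and 1.58 to 2.01 FPKM with CDH5 at 0 in every library, stellate and fibroblast markers at 54.2 to 57.4, 136 to 144 and 208 to 213, and proliferation markers at 324 to 333, 242 to 271 and 230 to 238. The sums hide unequal members: of the 8 stellate markers 3 were called higher and 3 lower between the flask lines, with COL1A1 at 1.80 to 1.98 in HepaRG flask and 0.528 to 1.16 in M14A flask, and in M14A printed MKI67 was at 2.94 to 5.67 FPKM against 23.9 to 27.2 in HepaRG flask while PCNA was at 137 to 141 against 106 to 109. These lists moved with the groups, as did the mitochondrial share, and their part in the results below was not tested. In bulk RNA, fewer cells of a type and less RNA per cell cannot be told apart.

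Differences were tested with limma on log2(FPKM + 1) over the 14349 genes that reached 1 FPKM in 2 or more libraries, and a difference was called where the p adjusted by Benjamini and Hochberg's method fell below 0.05. A log2 fold change below is on that scale, with its standard error (SE). All members but ME1 passed the filter, and those 8 were above 5 FPKM in all 8 libraries.

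Between the flask-grown lines, 2 of the 8 tested members were called, 1 in each direction: H6PD was 2.92 times higher in M14A and PGD was lower. Of all genes tested 30.9% were called, 16.1% higher and 14.7% lower, so the members' share was not above that of all genes. The median log2 difference of the 8 members was -0.25, and that of all genes -0.04. The ranges of the 3 libraries did not overlap for 6 of the 8 (2 higher, 4 lower), against 53% of all genes (25.7% higher, 27.4% lower).

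H6PD (ENSG00000049239, chromosome 1, 9234775 to 9271337, plus strand) joins the glucose dehydrogenase and lactonase activities in the lumen of the endoplasmic reticulum. There it makes the NADPH that HSD11B1 uses to form active cortisol. Its level was 13.4, 14.5 and 13.5 FPKM in HepaRG flask, 47.2, 38.6 and 34.7 in M14A flask and 15.7 and 10.8 in M14A printed. Every M14A flask library was above all 5 others, whose ranges overlapped. Between the flask lines the log2 difference was 1.47 (SE 0.17, adjusted p = 2.8e-04, limma). From M14A flask to M14A printed H6PD fell by 1.54 (SE 0.19, adjusted p = 0.0011). Both calls held under all alternatives run, at 1.28 to 1.57 and at -2.25 to -1.20. Between M14A printed and HepaRG flask the difference was -0.07, with a 95% interval of -0.51 to 0.36 (adjusted p = 0.76). It was -0.32 without printed replicate 1 and 0.18 without printed replicate 2. With all libraries scaled to an equal FPKM total it was -0.97 and was called lower. At that setting the median of all genes was -0.77, and 62.5% of all genes were called lower.

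PGD (ENSG00000142657, chromosome 1, 10398592 to 10420144, plus strand), 6-phosphogluconate dehydrogenase, catalyses the later NADPH-yielding step of the cytosolic oxidative arm. Its level was 147, 144 and 157 FPKM in HepaRG flask, 126, 92.1 and 79.6 in M14A flask and 139 and 132 in M14A printed. All M14A flask libraries were below all others, with replicate 1 nearest to them. Between the flask lines PGD fell by 0.61 (SE 0.17, adjusted p = 0.026, limma). The call was lost without any 1 HepaRG library (-0.64 to -0.58) or without M14A flask replicate 2 or 3 (-0.57 and -0.47) and with no filter on low values (adjusted p = 0.060), whereas without M14A flask replicate 1 the value was -0.80 (adjusted p = 3.4e-04). M14A printed was 0.47 higher than M14A flask (SE 0.19, adjusted p = 0.092; 95% interval 0.03 to 0.91), a difference that did not pass. It was called at 0.65 without M14A flask replicate 1 (adjusted p = 0.0011) and at 0.28 with the GC and length trend removed. With an equal FPKM total it was called in the other direction at -0.29. At that setting the median of all genes was -0.51, and 46.1% of all genes were called lower.

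PGLS (ENSG00000130313, chromosome 19, 17511629 to 17521288, plus strand), the cytosolic lactonase that opens the ring before PGD acts, was at 18.1, 16.9 and 19.3 FPKM in HepaRG flask, at 31.4, 20.7 and 19.8 in M14A flask and at 50.3 and 30.6 in M14A printed. M14A flask replicate 1 stood above the other 2 of its group, the printed libraries were far apart, and printed replicate 2 was below M14A flask replicate 1. Neither the step between the flask lines (0.36, 95% interval -0.15 to 0.87, adjusted p = 0.25) nor that from M14A flask to M14A printed (0.72, 0.15 to 1.29, adjusted p = 0.057) passed. The values were 0.16 and 0.92 without M14A flask replicate 1, and the latter was called (adjusted p = 0.0078), as it was with the replicate number as a block (0.68, adjusted p = 0.043) and with the GC and length trend removed (0.64). It was 0.37 without printed replicate 1 and -0.02 with an equal FPKM total. Printed cells were 2.23 times higher than HepaRG flask (1.08, SE 0.25, adjusted p = 0.0065), the single member called among 8 in that comparison, in which 56.2% of all genes were called, 28.1% higher and 28.1% lower. That call was lost without printed replicate 1 (0.73) and with an equal FPKM total (0.15). Of the PGLS exon bases, 9.17% overlap a lincRNA on the opposite strand, whose reads cannot be told apart as the strand setting is not given in the sources used here.

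**Figure D1:**
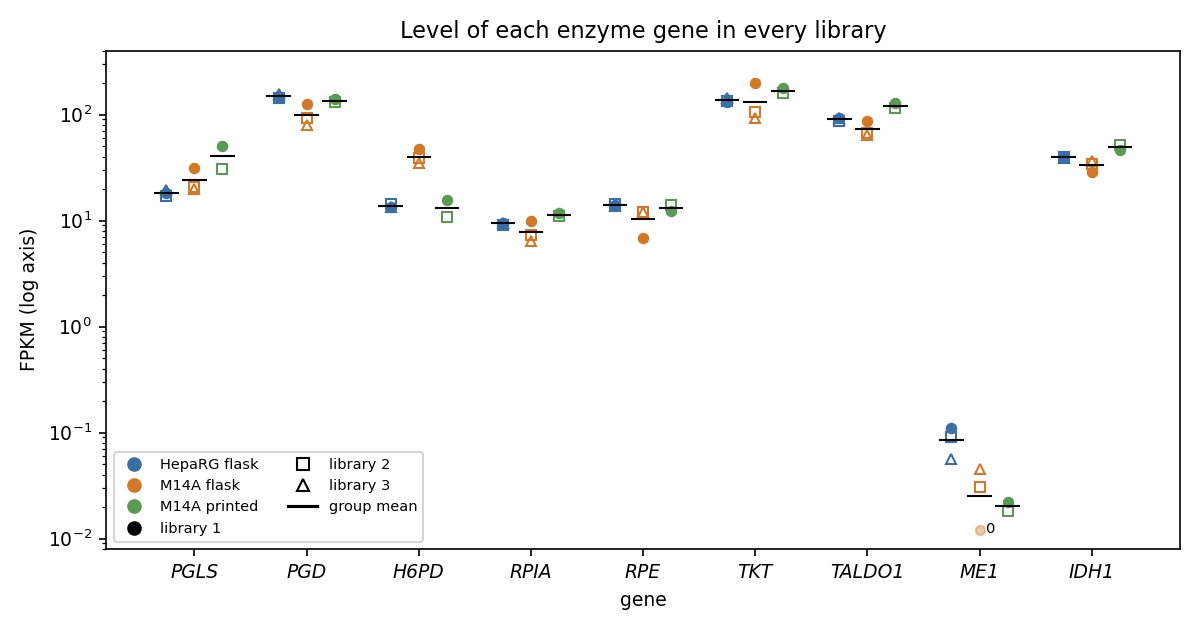
FPKM of the 9 enzymes on a log axis, 1 point per library, with black bars at the group means and the filled circle for replicate 1 of a group; the ME1 value of 0 is drawn at the bottom and marked. The 3 M14A flask libraries of H6PD, at 34.7 to 47.2 FPKM, sit above all others, while PGD in the same libraries, at 79.6 to 126, sits below all others.

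Ratios taken within a library do not depend on how libraries are scaled. H6PD to PGD was 0.0921 ± 0.00750 (SD, n = 3) in HepaRG flask, 0.410 ± 0.0320 (SD, n = 3) in M14A flask and 0.0973 ± 0.0219 (SD, n = 2) in M14A printed. The M14A flask range, 0.374 to 0.436, lay apart from the other 2, which overlapped. PGD to PGLS, successive steps of the cytosolic arm, was 8.28 ± 0.246 in HepaRG flask (n = 3), 4.16 ± 0.255 in M14A flask (n = 3) and 3.53 ± 1.09 in M14A printed (n = 2), so the parental line stood apart and both M14A groups overlapped. M14A flask replicate 1, which was high for PGD and for PGLS, lay inside its group for this ratio (4.01 to 4.46). PGD to TALDO1 stepped down with no overlap, from 1.59 to 1.68 in HepaRG flask to 1.23 to 1.45 in M14A flask and 1.09 to 1.14 in M14A printed. These ratios are given as a description, with no test. H6PD and PGD were called in opposite directions between the flask lines, so their ratio was bound to differ there. Other ratios were taken too. Flask-line ranges overlapped for IDH1 to PGD (0.248 to 0.274 and 0.230 to 0.457), RPE to RPIA (1.44 to 1.56 and 0.691 to 1.87) and TKT to TALDO1 (1.42 to 1.53 and 1.44 to 2.26). They did not overlap for H6PD to PGLS and PGD to TKT.

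**Figure D2:**
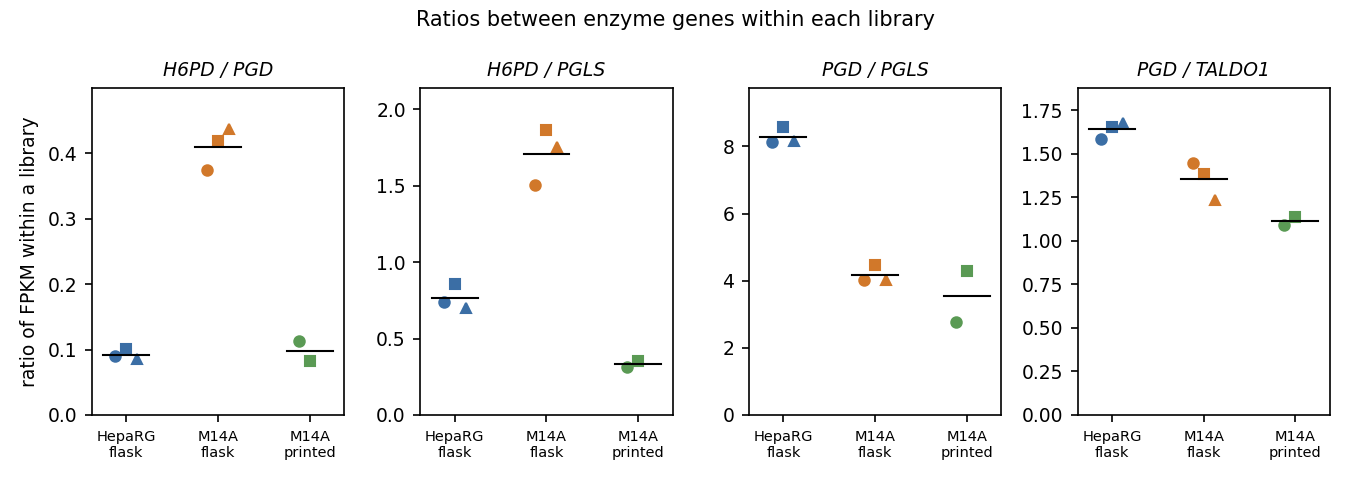
Ratios of FPKM between members within each library, by group, with a bar at the group mean and circle, square and triangle for replicates 1, 2 and 3. The ratio of H6PD to PGD is 0.374 to 0.436 in M14A flask and at most 0.113 in all 5 other libraries, and that of PGD to PGLS is above 8 in HepaRG flask only.

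With limma, 0 of the 4 non-oxidative enzymes were called between the flask-grown lines, and 1 of them, TALDO1, had an unadjusted p below 0.05. TALDO1 (ENSG00000177156, chromosome 11, 747329 to 765024, plus strand), transaldolase, which moves 3-carbon units between sugar phosphates, was at 92.9, 87.4 and 93.8 FPKM in HepaRG flask, 87.1, 66.6 and 64.5 in M14A flask and 127 and 116 in M14A printed. The 3 groups did not overlap, with printed cells highest. From M14A flask to M14A printed TALDO1 rose by 0.74 (SE 0.16, adjusted p = 0.0093, limma), a call lost without printed replicate 1 (0.68), in a fit of only the groups compared, with quantile scaling (0.16) and with an equal FPKM total, where the value was -0.01. Between the flask lines it was -0.34 (95% interval -0.67 to -0.01, adjusted p = 0.11), and without M14A flask replicate 1 it was -0.47 and was called. On all libraries TALDO1 was also called there with an equal FPKM total (-0.54) and with that total without mitochondrial genes (-0.47). The same held with quantile scaling (-0.58) and with the GC and length trend removed (-0.54).

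TKT (ENSG00000163931, chromosome 3, 53224707 to 53256052, minus strand), transketolase, the thiamine-dependent enzyme that moves 2-carbon units, was at 132, 134 and 142 FPKM in HepaRG flask, at 197, 106 and 93.0 in M14A flask and at 178 and 159 in M14A printed. M14A flask replicate 1 was the highest of all 8 libraries and the other 2 of its group the lowest, so the group straddled the rest. Neither TKT step passed with all libraries at the settings used here: -0.12 between the flask lines (95% interval -0.70 to 0.45, adjusted p = 0.74) and 0.43 from M14A flask to M14A printed (-0.21 to 1.07, adjusted p = 0.28). Without that library the values were -0.45 and 0.75 and both were called. On all libraries TKT was also called with quantile scaling between the flask lines (-0.42) and with the GC and length trend removed from M14A flask to M14A printed (0.78). The value between the flask lines was 0.09 without M14A flask replicate 3. The related genes TKTL1 and TKTL2 had 6 reads or fewer per library.

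RPIA (ENSG00000153574, chromosome 2, 88691644 to 88750935, plus strand), the isomerase that makes ribose 5-phosphate for nucleotides, was at 9.51, 9.11 and 9.59 FPKM in HepaRG flask, at 9.92, 7.26 and 6.38 in M14A flask and at 11.7 and 10.98 in M14A printed. Printed cells were above the others, and M14A flask replicate 1 lay above the HepaRG range while the other 2 lay below it. RPIA did not pass between the flask lines (-0.25, 95% interval -0.60 to 0.10, adjusted p = 0.24) or from M14A flask to M14A printed (0.50, 0.10 to 0.89, adjusted p = 0.055). Without M14A flask replicate 1 the values were -0.41 and 0.66, and both were called. On all libraries the former was also called with an equal FPKM total (-0.44), with that total without mitochondrial genes (-0.38) and with the GC and length trend removed (-0.44). The latter was also called with a filter at 5 FPKM and with median-ratio or quantile scaling. It was -0.19 and not called with an equal FPKM total.

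RPE (ENSG00000197713, chromosome 2, 210002565 to 210022259, plus strand) is the epimerase that makes xylulose 5-phosphate. Its level was 14.1, 14.2 and 13.8 FPKM in HepaRG flask, 6.86, 12.1 and 11.9 in M14A flask and 12.2 and 14.1 in M14A printed. M14A flask replicate 1 was thus the lowest library for RPE, as it was for IDH1 and ME1. The M14A flask libraries were below all others, printed replicate 2 was within the HepaRG range and printed replicate 1 below it. Neither step of RPE passed with all libraries at the settings used here: -0.45 between the flask lines (95% interval -0.90 to 0.00, adjusted p = 0.12) and 0.36 from M14A flask to M14A printed (-0.14 to 0.87, adjusted p = 0.24). Both shrank to -0.21 and 0.12 without M14A flask replicate 1 and were not called (adjusted p = 0.070 and 0.27). RPE shares 23.8% of its exon bases with KANSL1L on the opposite strand, so part of its reads could belong to that gene.

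Of the 2 enzymes outside the pathway, cytosolic NADP-dependent isocitrate dehydrogenase was well expressed and malic enzyme was close to absent from the counts. IDH1 (ENSG00000138413, chromosome 2, 208236227 to 208266074, minus strand) was at 40.0, 39.6 and 39.0 FPKM in HepaRG flask, 28.99, 34.3 and 36.4 in M14A flask and 46.1 and 51.7 in M14A printed. The 3 groups did not overlap. From M14A flask to M14A printed IDH1 rose by 0.55 (SE 0.14, adjusted p = 0.019, limma). The call was lost without printed replicate 1 (0.63) or 2 (0.47), in a fit of only the groups compared and with quantile scaling (0.15), and the value was -0.20 with an equal FPKM total. Between the flask lines IDH1 was at -0.25 (95% interval -0.54 to 0.04, adjusted p = 0.17), and at -0.16 without M14A flask replicate 1.

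ME1 (ENSG00000065833, chromosome 6, 83210389 to 83431071, minus strand), cytosolic malic enzyme, was at 0.110, 0.0903 and 0.0567 FPKM in HepaRG flask, at 0, 0.0304 and 0.0452 in M14A flask and at 0.0222 and 0.0183 in M14A printed. These levels rest on 4 to 7 reads per HepaRG library, 0 to 3 per M14A flask library and 1 in each printed library. Pooled by group, HepaRG flask was 3.17 times M14A flask (exact 95% interval 1.13 to 10.9) and 4.24 times M14A printed (1.02 to 37.7); the intervals cover counting error only and say nothing of the spread between cultures. ME1 was not tested further.

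From M14A flask to M14A printed, 3 of the 8 tested members were called, TALDO1 and IDH1 higher and H6PD lower, where 33.2% of all genes were called (17.7% higher, 15.5% lower). Apart from H6PD every tested member had a positive log2 difference, with a median over the 8 of 0.48 against 0.01 for all genes. These 8 lay above 5 FPKM. With the filter at 5 FPKM the median of all genes was 0.13, with 26.6% called higher and 16% lower. Ranges did not overlap for 6 of the 8 (5 higher, 1 lower), against 51.3% of all genes (26.9% higher, 24.4% lower). Between M14A printed and HepaRG flask the median was 0.27 against -0.05, or 0.13 for all genes with the filter at 5 FPKM. In that comparison 6 of 8 did not overlap (5 higher, 1 lower), against 80.4% of all genes (38.5% higher, 41.8% lower). The comparisons share libraries and are set side by side only. The positive differences move with scaling. When each library was brought to an equal FPKM total, the median of all genes itself shifted. It was -0.51 from M14A flask to M14A printed and -0.77 against HepaRG flask. All 7 members with a positive difference turned negative in the former (-0.34 to -0.01). They stayed above that median of -0.51, by 0.17 (RPE) to 0.50 (TALDO1). Without M14A flask replicate 1, 7 of the 8 were called from M14A flask to M14A printed (6 higher, with H6PD lower) and 5 between the flask lines, where 55.5% and 43% of all genes were called.

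**Figure D3:**
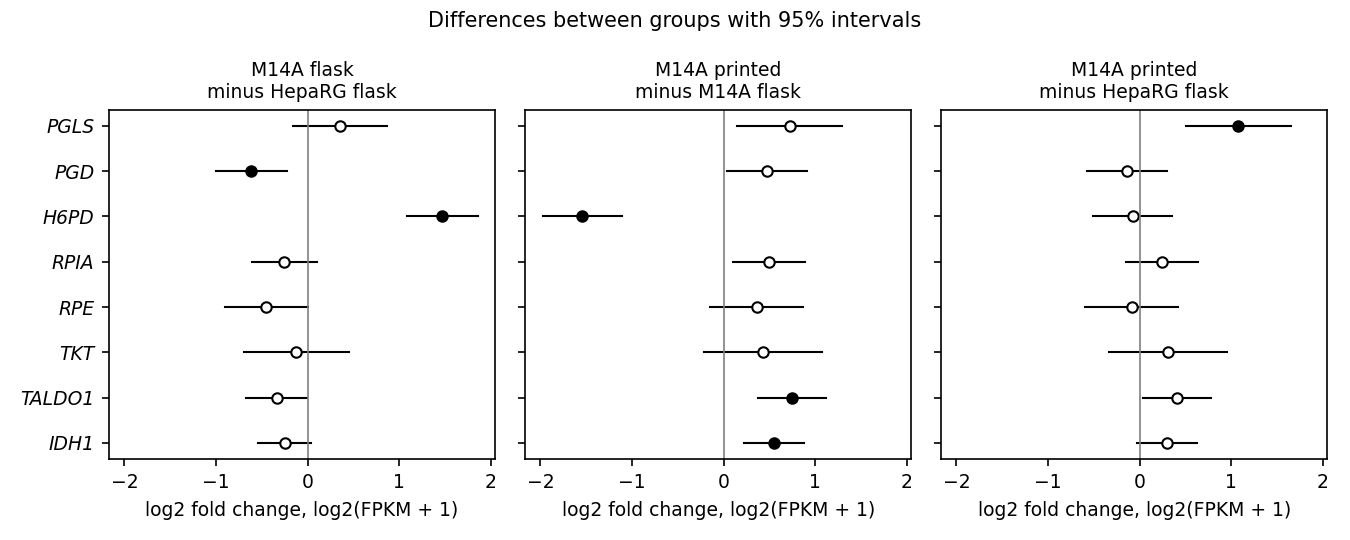
Log2 differences of the 8 tested members in the 3 comparisons, with bars for 95% intervals and filled points for an adjusted p below 0.05 (limma). H6PD is called at 1.47 and at -1.54 in the comparisons that involve M14A flask, and PGLS alone is called, at 1.08, between M14A printed and HepaRG flask.

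**Figure D4:**
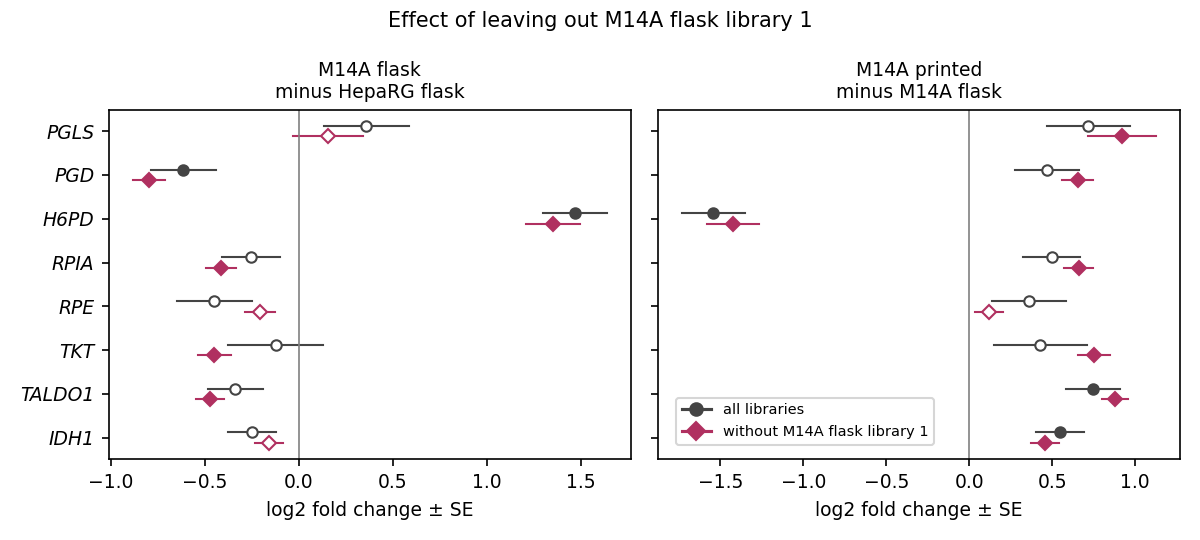
Log2 differences ± SE of the same 8 members with all libraries (circles) and without M14A flask replicate 1 (diamonds), filled where called. H6PD keeps its place in both panels, whereas TKT moves from -0.12 to -0.45 between the flask lines and from 0.43 to 0.75 from M14A flask to M14A printed.

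Set against each other per length, the members ran in HepaRG flask from PGD down through TKT, TALDO1, IDH1, PGLS, RPE, H6PD and RPIA to ME1, and RPE and H6PD alone overlapped among neighbours. In M14A flask TKT, PGD and TALDO1 overlapped as the upper set, H6PD, IDH1 and PGLS as the middle set and RPE with RPIA below. In M14A printed the order was TKT, PGD, TALDO1, IDH1, PGLS, H6PD, RPE, RPIA and ME1, with overlaps between IDH1 and PGLS and between H6PD and RPE. The lengths used are those of all exons together, 9507 bases for TKT against 3010 in its longest coding transcript. On the latter length TKT came first in all 3 groups, and PGD second in HepaRG flask and the third in both M14A groups. H6PD was then the sixth in M14A flask and the seventh in the other 2 groups.

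As a share of the members' summed FPKM, which ran from 460.0 to 489 in HepaRG flask, 346 to 534 in M14A flask and 525 to 581 in M14A printed, PGD took 31.7%, 23.7% and 24.5% on average. H6PD took 2.92%, 9.69% and 2.38%, PGLS 3.83%, 5.69% and 7.25%, and TKT 28.8%, 30.6% and 30.5%. The share of PGD was thus lower in both M14A groups, while that of H6PD was higher in M14A flask than in either other group.

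By Pearson correlation of log2(FPKM + 1) over the 8 libraries, the protein-coding genes most like H6PD were HELZ2 (0.996), PGBD5 (0.989) and NFKBIA (0.989). Those most like PGD were RRP7A (0.992), SMARCD2 (0.989) and GSTM4 (0.988), and those most like RPE were TERF1 (0.995), CASC4 (0.993) and DENR (0.992). These are the highest of 11298 genes over 8 points in 3 groups, and the points share scaling and group. NFKBIA, which encodes an inhibitor of NF-kB, was at 38.9 to 41.4 FPKM in HepaRG flask, 105 to 159 in M14A flask and 38.1 to 41.6 in M14A printed, an order like that of H6PD. For RPE the likeness includes the low value in M14A flask replicate 1, where CASC4 was at 2.67 FPKM against 7.44 and 7.66 in its group.

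Genes that use or surround this supply were read from 5 lists. To set beside the list counts, 16.1% of all genes were called higher and 14.7% lower between the flask lines. From M14A flask to M14A printed these shares were 17.7% and 15.5%. Without M14A flask replicate 1 they were 20.3% and 22.7% between the flask lines and 28.4% and 27.1% in printed cells. With an equal FPKM total they were 3.45% and 46.1% in printed cells. Among 24 NADPH-consuming reductases and synthases, 22 were tested, and 4 were higher and 5 lower in M14A flask than in HepaRG flask (median 0.01). HSD11B1, the partner of H6PD in the endoplasmic reticulum, was at 0.211, 0.374 and 0.189 FPKM in HepaRG flask and at 9.51, 17.0 and 17.4 in M14A flask, higher by 3.59 (SE 0.21, adjusted p = 5.9e-06, limma). In M14A printed HSD11B1 was at 20.6 and 23.2 FPKM, so it stayed high where H6PD was low. FDXR, which passes electrons from NADPH to mitochondrial steroid hydroxylases, was higher by 2.96 (6.68 to 61.9 FPKM), and the carbonyl reductase CBR3 fell by 1.32 (5.89 to 1.76 FPKM). Of the CBR3 exon bases, 42.2% are shared with other genes. From M14A flask to M14A printed 3 of the 22 rose and 3 fell (median 0.34). Without M14A flask replicate 1 the counts were 5 higher and 8 lower between the flask lines and 12 higher and 4 lower in printed cells, and with an equal FPKM total 0 and 10 in the latter. Fatty acid synthase, FASN, fell by 1.49 (237 to 87.4 FPKM), a call lost without printed replicate 2 (-0.88), while the reductases BLVRB and AKR1A1 rose by 1.07 and 1.02, calls lost without printed replicate 1 (0.93 and 0.85) and with an equal FPKM total (0.31 and 0.27).

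Of 22 regulators and targets of NRF2 outside the 9 genes, 21 were tested, and 16 were lower and 0 higher in M14A flask than in HepaRG flask, with a median of -0.92. The list was drawn up with the fall of NQO1 and SLC7A11 already known, so its direction is not independent evidence. NQO1, a quinone reductase that uses NADPH or NADH, was at 184 to 190.2 FPKM in HepaRG flask and 0.125 to 0.462 in M14A flask (-7.21, adjusted p = 2.0e-08, limma). The cystine transporter SLC7A11 fell by 3.40, and GCLM, a subunit of the enzyme that limits glutathione synthesis, fell by 2.39. PGD, often listed among targets of NRF2, was lower as well, a call lost under 7 of 22 alternatives. TALDO1 and TKT, listed there too, did not pass in the main fit and were called lower without M14A flask replicate 1. In M14A printed, 15 of the 21 were lower than in HepaRG flask and 2 higher, against 28.1% of all genes each way. There NQO1 was at 0.253 and 0.398 FPKM, SLC7A11 at 1.53 and 1.92 and GCLM at 10.8 and 12.3. PGD was at 139 and 132 FPKM. From M14A flask to M14A printed 4 of 21 rose and 2 fell: MAFG, a small Maf partner of NRF2, fell by 1.05, and TXN and HMOX1 rose by 1.04 and 0.93, with TXN at -0.06 under quantile scaling and HMOX1 not called without printed replicate 1 (0.80) or with an equal FPKM total (0.23). Without M14A flask replicate 1 these counts were 8 and 8, where 28.4% of all genes were higher and 27.1% lower. With an equal FPKM total 1 rose and 9 fell, where 3.45% of all genes were higher and 46.1% lower.

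Among 17 other genes that supply NADPH or feed its makers, 14 were tested and 2 were higher in M14A flask, GLUD2 by 1.15 and ALDH1L1 by 0.60, and 0 lower (median -0.07); without M14A flask replicate 1 it was 2 higher and 4 lower. GLUD2 is a near copy of GLUD1, so its reads are uncertain, and ALDH1L1, a folate dehydrogenase that makes NADPH, was not called without any 1 HepaRG library (0.58 to 0.61). In M14A printed MDH1 rose by 0.69, ME3 by 0.52 and ME2 by 0.43 over M14A flask. MDH1 and ME2 are linked mainly to NAD rather than NADP, and ME3 is the mitochondrial malic enzyme that makes NADPH. The ME3 call was lost without printed replicate 1 (0.49) or 2 (0.56), and the ME2 call under most alternatives, among them each HepaRG or printed library left out. With quantile scaling MDH1 was not called (0.23). All 3 turned negative with an equal FPKM total (-0.06, -0.14 and -0.12). At that setting 0 of the 14 rose and 7 fell, where 3.45% of all genes were higher and 46.1% lower. Without M14A flask replicate 1, 9 rose and 0 fell, where 28.4% of all genes were higher and 27.1% lower.

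Of 16 other pentose and ribose phosphate genes, 12 were tested, with 3 higher and 0 lower in M14A flask (median 0.31) and 4 higher and 0 lower from M14A flask to M14A printed (median 0.51). Without M14A flask replicate 1 they were 4 higher and 2 lower, and 8 higher and 0 lower (28.4% and 27.1% of all genes in the latter). With an equal FPKM total 1 rose and 5 fell in printed cells, where 3.45% of all genes were higher and 46.1% lower. DERA, the aldolase that breaks down deoxyribose phosphate, was at 6.09 to 6.85 FPKM in HepaRG flask, 12.01 to 15.2 in M14A flask and 23.4 to 26.3 in M14A printed, higher by 1.00 and then by 0.80, a step that was 0.07 and not called with an equal FPKM total. The ribokinase RBKS was at 1.14 to 1.40, 2.61 to 2.95 and 4.46 to 5.48 FPKM (0.74 between the flask lines). SHPK, sedoheptulokinase, was called at 0.34 (adjusted p = 0.048, limma), a call lost under most alternatives, with 74.4% of its exon bases shared with other genes. DCXR, which reduces xylulose with NADPH, rose by 1.31 in M14A printed (44.2 to 108 FPKM) and PRPS2, which makes phosphoribosyl pyrophosphate, by 0.87; each call was lost without printed replicate 1 (1.11 and 0.92), and that of PRPS2 also without replicate 2 (0.82), with quantile scaling (0.47) and with an equal FPKM total (0.12).

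Among 18 glycolytic genes at the branch points, 13 were tested, with 2 higher and 2 lower between the flask lines (median 0.32) and 3 higher and 2 lower from M14A flask to M14A printed (median 0.52). The muscle phosphofructokinase PFKM fell from 6.67 to 1.57 FPKM (-1.58), and PFKFB3 and PFKFB4, which set the level of fructose 2,6-bisphosphate, rose by 0.92 and 0.88. Among the flask libraries M14A flask replicate 1 was highest in both. Without it both stood at 0.58 and were called, whereas the calls were lost without any 1 HepaRG library. In printed cells the counts were 7 higher and 3 lower without M14A flask replicate 1 (28.4% and 27.1% of all genes). With an equal FPKM total they were 2 higher and 3 lower (3.45% and 46.1% of all genes). In M14A printed GAPDH rose from 557 to 1309 FPKM (1.27), TPI1 from 167 to 359 (1.13) and ALDOC from 54.6 to 117 (1.16). With quantile scaling the GAPDH and TPI1 calls were lost (0.09 and 0.21), and that of ALDOC was lost with an equal FPKM total (0.40) and without either printed library. GAPDH and TPI1 have processed copies that can share reads.

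**Figure D5:**
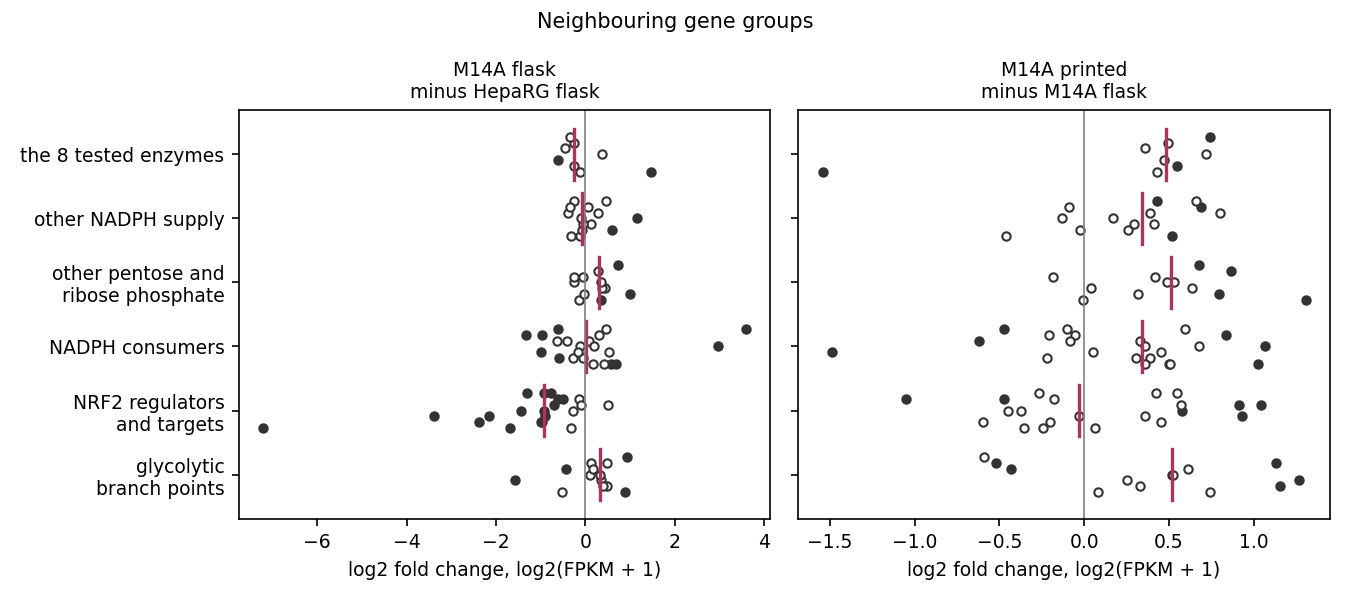
Log2 differences of the tested genes of each list between both flask-grown lines (left) and between M14A printed and M14A flask (right), 1 point per gene, filled where called, with a red line at the list median. The NRF2 list lies below 0 in the former, at a median of -0.92, while the 8 tested members spread from -0.61 to 1.47.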

How the data were processed

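RNA from 8 libraries was measured by RNA-seq. Libraries were made with a NEBNext Ultra kit from TRIzol-extracted RNA (1 µg each), per the labels' protocols. HISAT2 2.0.5 and featureCounts 1.5.0-p3 are named in the submitters' processing notes; options, strand setting and order of steps: not given in the sources used here. FPKM were deposited by the authors together with gene lengths. The build is not stated, but all 58735 gene positions equal those of GENCODE 29 on GRCh38. FPKM times length gave whole multiples of 1 read (tolerance 0.01) for 100% of non-zero values, hence the depths. The authors' denominators were 0.818 to 1.20 times these reads and followed median-ratio factors within 0.979 to 1.03 times, and a change common to the bulk of genes is thus invisible.

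Groups came from sample titles. Genes that reached 1 FPKM in 2 or more libraries were fitted as log2(FPKM + 1) in 1 limma 3.58.1 model (R 4.3.3, trended eBayes) of 3 group means over all 8 libraries, which leaves 5 residual degrees of freedom; p-values are two-sided and adjusted by Benjamini-Hochberg over 14349 genes, called below 0.05. The procedure was tested on simulated reads: for M14A flask minus HepaRG flask calls were made for 69.5% of genes changed 2-fold and 96.9% of those changed 4-fold. For 2-fold changes the share was 66% in M14A printed minus M14A flask and 58.5% in M14A printed minus HepaRG flask. The simulated libraries had a common spread, none stood apart and few genes were changed. These shares therefore check the procedure and do not give the share of true changes called in these data. Replicates differed by more than sampling noise (chi-square per degree of freedom 2.69 to 69.3), so none was counted as a duplicate.

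The members and lists were chosen with earlier results of these data known. Named beside the 9 members are, per list and for the first 2 comparisons, up to 3 called genes with the largest change, and the 3 genes most correlated with each of the 3 members that differed most between the flask lines; CASC4 and NFKBIA levels were picked from these, and RBKS in printed cells, after their values were seen. Alternatives were a pseudocount of 0.1, no filter, a filter at 5 FPKM, median-ratio, quantile and equal-total scaling (also without mitochondrial genes), only the groups compared, no trend, voom on the recovered reads, a block on replicate number, omission of each library in turn and a cutoff of 0.01. Removal of each library's trend with GC content and length (splines with 5 degrees of freedom), with and without M14A flask replicate 1, and the order on the longest coding transcript were added after seeing the data. Some genes of the lists are not reported here.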

Additional observations from a re-analysis of the deposited data

How the results depend on the processing

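Of the results, H6PD kept both calls under every alternative run, while the numbers of calls moved. Members called, 2, 3 and 1 of 8 in M14A flask minus HepaRG flask, M14A printed minus M14A flask and M14A printed minus HepaRG flask, ran from 1 to 5, 1 to 7 and 0 to 5 when 1 library was left out, and all genes called, 4429, 4770 and 8065, from 2788 to 6117, 2495 to 7889 and 5756 to 10343. As shares of all genes tested the latter were 19.7 to 43%, 17.7 to 55.5% and 40.8 to 72.7%. Percentages beside the counts below are shares of all genes called at the same setting. Between the flask lines members called were 1 without filter (12.8%). They were 4 with an equal FPKM total (37.8%) and with that total without mitochondrial genes (35.3%). With quantile scaling (36.4%) and with the GC and length trend removed (44.5%) they were 4 too. With that trend removed without M14A flask replicate 1 they were 7 (52.3%), and at a threshold of 0.01 they were 1 (17.7%). All genes called were 2341 at a filter of 5 FPKM, 7432 with the trend removed without that library and 2544 at 0.01. For M14A printed minus M14A flask members called were 5 at 5 FPKM (42.6%) and with median-ratio scaling (34.3%). They were 1 with the total without mitochondrial genes (43.1%) and with only the groups compared (14%). With the trend removed they were 6 (45.2%), and 7 without that library too (58.4%). All genes called were 2016 with only the groups compared, 8290 with the trend removed without that library and 2368 at 0.01. For M14A printed minus HepaRG flask members called were 7 with an equal total (72.8%) and 4 without mitochondrial genes (67%). They were 2 with median-ratio (56%) and 4 with quantile scaling (54%), and 5 with only the groups compared (70.4%). With the trend removed they were 4 (64.1%), and 6 without that library too (74%). All genes called were 4661 at 5 FPKM. In that comparison the 2 fits of equal totals differed for all genes too: 72.8% and 67% of all genes were called, 62.5% and 53% lower. Signs turned in M14A printed minus M14A flask with an equal total for all 7 positive members, PGLS (-0.0194), PGD (-0.29), RPIA (-0.19), RPE (-0.34), TKT (-0.33), TALDO1 (-0.0111) and IDH1 (-0.20), and for MDH1 (-0.0592), ME3 (-0.14) and ME2 (-0.12); without mitochondrial genes for PGD (-0.11), RPIA (-0.0267), RPE (-0.18), TKT (-0.15) and IDH1 (-0.0207); with quantile scaling for PGD (-0.14), TKT (-0.28) and TXN (-0.0625); and for RPE with the trend removed without M14A flask replicate 1 (-0.0434). In M14A printed minus HepaRG flask they turned with an equal total for RPIA (-0.63), TKT (-0.66), TALDO1 (-0.55) and IDH1 (-0.65), without mitochondrial genes for RPIA (-0.40), TKT (-0.40), TALDO1 (-0.30) and IDH1 (-0.40), with quantile scaling for TKT (-0.70), TALDO1 (-0.42) and IDH1 (-0.28), and with the trend removed for RPIA (-0.24, with or without M14A flask replicate 1) and H6PD (0.22 in both). Uncalled signs near 0 also turned when 1 library was left out, for TKT between the flask lines and for RPE and H6PD between M14A printed and HepaRG flask. Equal totals moved the median of all genes to -0.20, -0.51 and -0.77. The cause was not tested. With the replicate number as a block members called were 2, 4 and 1 (30.8%, 30.5% and 53.5% of all genes). Same-numbered libraries had correlated deviations in 2 of 7 pairs (-0.16 to 0.49), and differently numbered ones in 3 of 14 (-0.49 to 0.43). The former 2 were M14A flask with M14A printed, replicate 1 (0.49) and replicate 2 (0.36). The deviations of 2 printed libraries mirror each other, so these values cannot settle pairing. The main fit did not pair libraries. Depth limits ME1, at 0 to 7 reads per library, and 2 printed libraries say little on their own spread.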
